A study of Bos taurus with 24 samples.

Results

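A set of 90 of the 24616 bovine genes counted in this study took at least 20 and under 5000 CPM (a gene's count divided by the library's total count, times 1000000) on average in the mammary gland of lactating cows, and at least 30 times their average in the livers of the same cows. These 90 genes, called the mammary-restricted genes here, were chosen by those measured levels alone, with 11 identifiers that the selection rule lists left out. Above them in abundance stood 7 genes at or above 5000 CPM that met the same ratio to liver, with the same 11 identifiers left out. A further 2414 genes lay in the same range of mammary levels without being chosen, and they serve as the comparison below.

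The cows were Bos taurus in lactation and ate for 12 weeks until slaughter an alfalfa hay diet, in which the forage is a legume, or a corn stover diet, in which it is the dry plant that remains once the grain is taken. Each diet had 6 cows, and each cow gave 1 liver and 1 mammary library, so that 24 libraries of total RNA fell into 4 groups of 6. Milk yield was 23.3 to 29.0 kg per day on hay and 17.1 to 23.3 kg per day on corn stover. Days in milk were 231 to 246 on hay and 228 to 254 on corn stover. In each diet 1 cow was of parity 2 and the others of parity 3. The parity 2 cow also had the highest yield of its diet, so at that end yield and parity cannot be told apart. All samples were pieces of whole tissue, and the labels name no other treatment. Library totals ran from 22579051 to 37954234 counts.

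The secretory epithelium of the lactating mammary gland makes milk proteins, lactose and milk fat, and its RNA is dominated by messages for a few milk proteins. Below these lie the messages for transporters, enzymes of lipid and sugar synthesis, junction and membrane proteins and secreted defence factors, together with those of myoepithelial cells, stroma, fat, vessels and immune cells. The liver shares much of the general metabolism of the gland but not its secretory epithelium. Which of these classes the 90 genes belong to was not analysed here, because the files give identifiers without names, and of all 24616 none was found in the RefSeq gene table at hand. The word mammary-restricted therefore rests on the levels in these 2 tissues only, and the tissue labels were not checked against named markers. In whole tissue, fewer cells of a type and less RNA per cell cannot be told apart.

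The 90 genes spanned mean mammary levels from 20.1 to 3641 CPM, with a median of 58.1 and quartiles of 31.1 and 151 CPM. Most were of modest abundance. There were 61 genes under 100 CPM, 25 from 100 to under 1000 CPM and 4 at or above 1000 CPM. CPM are not divided by gene length, so these values order the genes by reads taken and not by transcripts. The 5 most abundant members took 46.8% of all reads of the set in mammary gland.

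In mammary libraries the set took 1.92% ± 0.265 of reads on hay and 1.93% ± 0.365 on corn stover (SD, n = 6 each). The 7 genes above the upper limit took 72.9% ± 3.72 and 70.7% ± 4.93 of reads in the same libraries. The share of the set ran from 1.51% to 2.19% in hay libraries and from 1.60% to 2.63% in corn stover libraries, with the highest share in corn stover library 1. In liver the set took 0.00866% ± 0.00309 of reads on hay and 0.00853% ± 0.00262 on corn stover.

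ENSBTAG00000005260 was the most abundant member. Its normalised CPM, which are CPM further scaled by a trimmed mean of ratios between libraries of a tissue (TMM), had a lowest, median and highest value of 2522, 3900 and 5170 in mammary hay libraries and of 2518, 2879 and 5676 in mammary corn stover libraries. The diets overlapped over nearly the whole range. In liver it was read at 34 to 60 counts per hay library and 12 to 155 counts per corn stover library, for a mammary mean 1883 times the liver mean in CPM.

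ENSBTAG00000048250 was the second, with a lowest, median and highest value of 1700, 2052 and 2749 normalised CPM on hay and 1013, 1667 and 3555 normalised CPM on corn stover. Its spread between cows was wider on corn stover, where libraries 2 and 4 lay above every hay library and libraries 1, 3 and 6 below every hay library. In liver it had 9, 8, 6, 8 and 3 reads in hay libraries 1 to 5, no read in hay library 6, 1 read in corn stover library 1 and none in the other corn stover libraries. Its mammary mean was 18268 times its liver mean.

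The choice used the ratio of mammary to liver means, so that ratio is given as a description. It had a median of 226 and ran from 31.1 to 34991 among the genes with a liver read. For 2 members no liver library held a read, while 42 had reads in all 12 livers. Just inside the ratio limit lay genes at 31.1 and 31.3 times the liver mean, and just outside it genes at 29.7 and 28.8 times. At the lower limit the nearest members had means of 20.1 and 20.8 CPM and the nearest genes left out had means of 19.6 and 19.7 CPM. The nearest genes above the upper limit had means of 10177 and 23211 CPM, well clear of the most abundant member. In 88 of the 90 genes every mammary library exceeded every liver library in CPM, and the other two were carried by a single mammary library each.

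**Figure D1:**
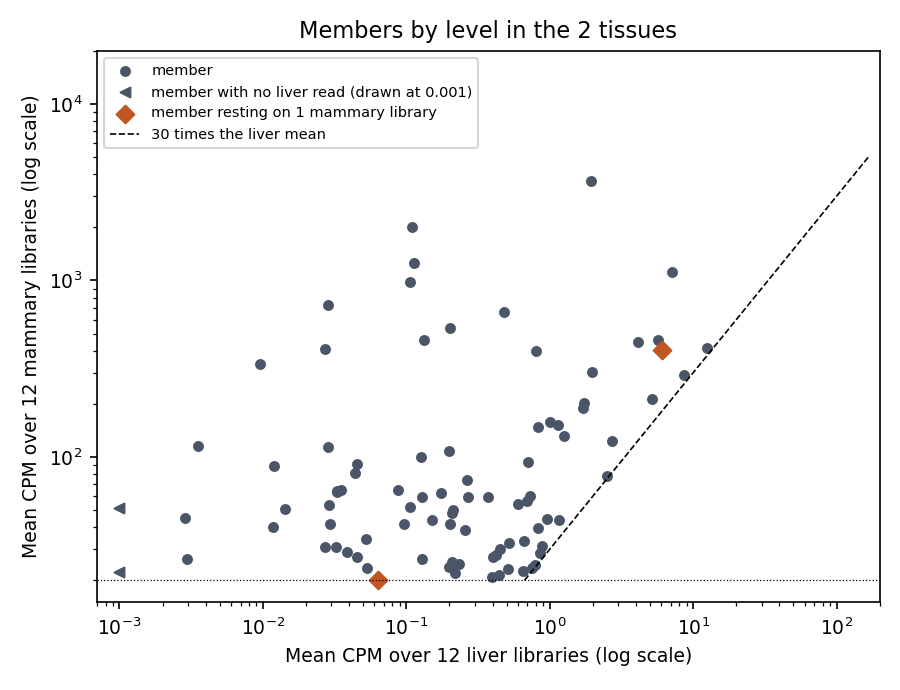
Each point is 1 of the 90 genes, at its mean CPM over 12 liver libraries (x axis, log scale) and over 12 mammary libraries (y axis, log scale); the dashed line marks 30 times the liver mean, the dotted line 20 CPM, and triangles the 2 genes with no liver read, drawn at 0.001. Most points lie at mammary means under 100 CPM, and the 2 diamonds mark the genes carried by 1 mammary library.

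Both of these genes were picked out after their values were seen. ENSBTAG00000046912 had 5600 reads in mammary corn stover library 3 and 0 to 4 reads in each of the other 11 mammary libraries. That library held 99.9% of its mammary reads, and the liver of the same cow held none. Its few liver reads, 4, 3 and 14, were in hay libraries 1 and 2 and corn stover library 2. Without that 1 mammary library its mean falls to 0.0302 CPM and it leaves the set.

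ENSBTAG00000039035 had a lowest, median and highest value of 0.325, 1.12 and 23.2 normalised CPM in mammary hay libraries and of 0.334, 38.4 and 3155 in mammary corn stover libraries. Corn stover library 1 alone held 106171 reads, which is 89.4% of the mammary reads of the gene, followed by 9957 reads in corn stover library 5 and 1442 in corn stover library 2. Corn stover libraries 3 and 6 had 8 and 17 reads, within the range of the lowest hay libraries. In liver the gene was highest in other cows, with 1220 reads in corn stover library 2 and 312 in hay library 5, against 77 in the cow whose mammary library was highest. Without mammary corn stover library 1 its mammary mean was 7.69 times its liver mean and it leaves the set. The set's share of reads on corn stover was 1.84% ± 0.211 without these 2 genes.

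How much the members differed between cows of 1 diet was described by the standard deviation of log2 normalised CPM within diets (after adding 0.5). Its median was 0.50 over the 90 members and 0.33 over the 2414 other genes of the same range of levels. A deviation above 1 was found in 9 members, 10%, against 73 of the other genes, 3.02%. Among these 9 were ENSBTAG00000039035 and ENSBTAG00000046912, each carried by 1 library. These genes, ENSBTAG00000015940 and ENSBTAG00000008793 reached 20 CPM only on corn stover. The choice favours such genes, so nothing is read from that share. The wider spread was seen at low and middle levels, with medians of 0.56 against 0.32 from 20 to under 50 CPM and 0.48 against 0.32 from 50 to under 200 CPM. From 200 CPM upwards the medians were 0.43 and 0.43, and there deviations above 1 were rarer among members, at 5% against 11.9% of the other genes. These values describe the genes and were not tested, since genes of 1 library are not replicates.

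The steadiest member, ENSBTAG00000012460, picked out after its values were seen, lay at 690 ± 79.1 normalised CPM on hay and 611 ± 39.7 on corn stover (SD, n = 6 each). Its deviation within diets was 0.14 on the log2 scale. At the other end, apart from the 2 genes carried by 1 library, stood ENSBTAG00000015940, picked out in the same way, at 1.97. It ran from 1.43 to 24.3 normalised CPM on hay and from 1.08 to 175 on corn stover, so that the lowest and the highest value of the gene both came from corn stover cows.

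The members did not vary as a single block. After the diet means were removed, the 4005 pairs of members had a median Pearson correlation of 0.03 over the 12 mammary libraries, and a median size of 0.34 regardless of sign. The other genes of the range had medians of 0.03 and 0.32. Pairs above 0.7 made up 5.97% of member pairs and 4.64% of pairs of the other genes, and 4.59% and 4.37% when corn stover library 6 was left out. All these pairs share the 12 libraries, their depth and their scaling. The most alike pair was ENSBTAG00000031753 and ENSBTAG00000010852, at 0.94 over 12 libraries, and both were named after the correlations were seen.

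One library contributed more than the others to this variation. Corn stover library 6 came from the cow with the lowest yield, 17.1 kg per day. It was the lowest of the 12 mammary libraries in 30 of 90 members, 33.3%, against 20.8% of the other genes of the range. It was the highest in 6 members, 6.67%, against 19.0% of the other genes. At either end it stood in 40% of members and 39.8% of the other genes. Hay library 2 came from the cow with the highest yield, 29.0 kg per day, which was of parity 2. It was the highest in 18 members, 20% of them, against 7.87% of the other genes. The first principal component of the members within diets held 33.3% of their variance, and corn stover library 6 made up 47.2% of that component, with 36 members higher and 54 lower towards it. The same library made up 51.5% of the first component of the other genes, so it stood apart there as well.

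The first test asked whether the members differed between the diets in mammary gland. No member passed the threshold, an adjusted p of 0.05 by edgeR's quasi-likelihood test with Benjamini-Hochberg adjustment over all 12027 genes tested. The 5 members that stood out most were lower on corn stover in the case of ENSBTAG00000009468 and ENSBTAG00000006738, and higher in the case of ENSBTAG00000024406, ENSBTAG00000008793 and ENSBTAG00000039035, without passing. Of those 5, ENSBTAG00000009468 had a mean of 20 CPM or more only on hay, and ENSBTAG00000008793 and ENSBTAG00000039035 only on corn stover. The choice favours such differences. Of the 90 members 89 had reads enough to be tested, and ENSBTAG00000046912 was not. The background was the same, since 0% of all 12027 genes passed. DESeq2 called 3 members, 3.37%, against 0.349% of all genes, and these were ENSBTAG00000009468, ENSBTAG00000039035 and ENSBTAG00000024406. Nothing is read from that share, because ENSBTAG00000039035 belongs to the set only through corn stover library 1 and ENSBTAG00000009468 has a mean of 20 CPM or more only on hay, at 49.8 against 18.6 CPM.

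Below that threshold the members leaned towards lower values on corn stover. The fitted difference was negative in 58 of the 89 and positive in 31, and 65.2% negative compares with 49.8% of all genes and 52.9% of the other genes in the range. Its median was -0.12 on the log2 scale against 0.00 for all genes and -0.02 for the other genes in the range. The median was -0.07 without corn stover library 6 and -0.24 with days in milk as a covariate. An unadjusted p under 0.05 was reached by 17 members, 19.1%, against 6.52% of all genes and 5.93% of the other genes in the range. Of the 17, 12 were lower on corn stover, 13.5% against 2.89% of all genes, and 5 were higher, 5.62% against 3.63%. DESeq2 gave 19 such members, 21.3% against 7.09%. Of the same 17, 6 reached the lower limit of 20 CPM in 1 diet only, 3 through hay and 3 through corn stover. These counts describe the set and were not tested as a list.

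The median size of the fitted difference on the log2 scale, regardless of sign, was 0.23 for members. It was 0.19 for all genes and 0.13 for the other genes in the range. A fitted difference of more than 2-fold was found in 8 members, 8.99%, against 2.96% of all genes and 1.87% of the other genes in the range, with 3 higher on corn stover, 3.37% against 1.90% of all genes, and 5 lower, 5.62% against 1.06%. The choice favours such genes, since a mean over both diets can be reached through 1 of them. All 3 that were higher reached 20 CPM only on corn stover, and 2 of the 5 that were lower only on hay, so these shares support nothing about the set. The median standard error was 0.26 for members, 0.26 for all genes and 0.19 for the other genes in the range. In 3 members every corn stover library lay below every hay library in normalised CPM, 3.37% against 0.150% of all genes. Among these 3 was ENSBTAG00000009468, which reached 20 CPM only on hay, so nothing is read from that share. None had every corn stover library above every hay library, against 0.191% of all genes.

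ENSBTAG00000009468 had the smallest p among the members. It measured 42.3, 31.0, 50.5, 55.2, 23.5 and 97.6 normalised CPM in hay libraries 1 to 6, a lowest, median and highest value of 23.5, 46.4 and 97.6, and 14.1, 18.4, 14.4, 22.9, 20 and 20.4 in corn stover libraries 1 to 6, with a lowest, median and highest value of 14.1, 19.2 and 22.9. The groups did not overlap in normalised CPM, and the hay cows were widely spread while the corn stover cows were close together. In CPM alone hay library 5, at 20.1, lay below corn stover libraries 5 and 6, at 20.4 and 20.6. The fitted log2 difference was -1.45 ± 0.28 (SE), with an edgeR adjusted p of 0.183 and a DESeq2 adjusted p of 0.00148. DESeq2 kept it under 0.05 with each of the 12 libraries left out in turn.

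ENSBTAG00000006738 had a lowest, median and highest value of 63.1, 77.3 and 82.4 normalised CPM on hay and 37.2, 53.6 and 59.4 on corn stover. The groups did not overlap in normalised CPM, and the spread within each was small. In CPM alone hay library 4, at 56.7, lay below corn stover libraries 1, 3 and 6, at 62.1, 58.9 and 60.0. The fitted log2 difference was -0.57 ± 0.15 with an edgeR adjusted p of 0.394. The third member without overlap, ENSBTAG00000032288, named here because it completes that count, ran from 78.1 to 149 normalised CPM on hay and from 39.8 to 77.7 on corn stover, for a log2 difference of -0.71 ± 0.21 (edgeR adjusted p = 0.457).

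ENSBTAG00000024406 had a lowest, median and highest value of 11.9, 21.1 and 26.1 normalised CPM on hay and of 25.3, 37.5 and 53.2 on corn stover. Only the lowest corn stover library fell inside the range of the hay libraries. The fitted log2 difference was 0.95 ± 0.22, with an edgeR adjusted p of 0.322 and a DESeq2 adjusted p of 0.0233. The DESeq2 value was over 0.05 when hay library 1 or 3 or corn stover library 2 or 4 was left out, at 0.0803, 0.0786, 0.0884 and 0.111.

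ENSBTAG00000008793 had a lowest, median and highest value of 6.89, 13.2 and 33.1 normalised CPM on hay and of 6.72, 84.5 and 314 on corn stover. The lowest library of all was a corn stover library, while 4 of the 6 corn stover libraries lay above all hay libraries. The fitted log2 difference was 2.77 ± 0.71 with an edgeR adjusted p of 0.393. Its mean was 18.3 CPM on hay and 112 CPM on corn stover, so it reached the lower limit only on corn stover. ENSBTAG00000039035, whose values by library are given above, had a fitted log2 difference of 6.98 ± 1.90 with an edgeR adjusted p of 0.394 and a DESeq2 adjusted p of 0.00794, and the difference was 4.32 without corn stover library 1, where the DESeq2 adjusted p was 0.235. DESeq2 gave no adjusted p for it without corn stover library 5.

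**Figure D2:**
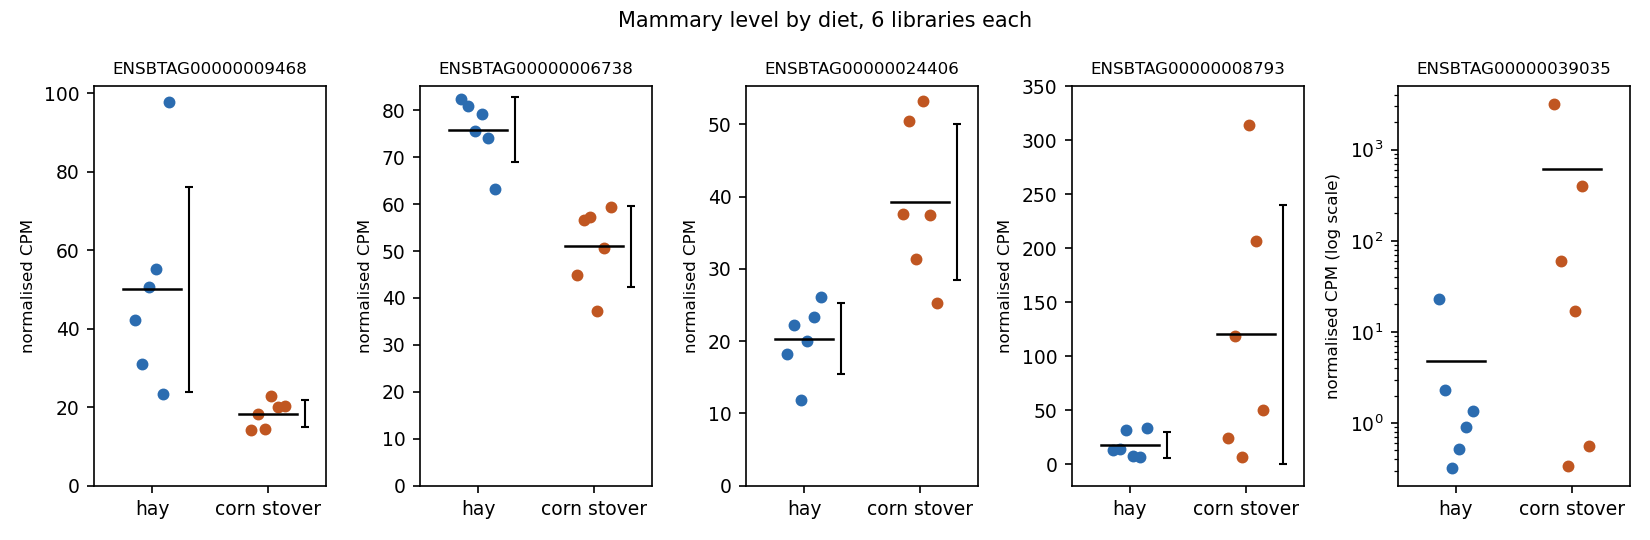
Normalised CPM of 5 members in the 6 mammary libraries of each diet, 1 point per cow; horizontal lines are means and the bars beside them SD, except for the last gene, drawn on a log scale without SD. In normalised CPM, but not in CPM alone, the diets are apart without overlap in ENSBTAG00000009468 and ENSBTAG00000006738. In ENSBTAG00000039035 1 corn stover library at 3155 stands far above the rest.

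The 2 most abundant members were close between the diets for their spread. ENSBTAG00000005260 had a log2 difference of -0.11 ± 0.26 (edgeR adjusted p = 0.983) and ENSBTAG00000048250 one of -0.10 ± 0.31 (edgeR adjusted p = 0.988). The median was below 0 in each class of the tissue ratio. Among the 27 members with a ratio of 1000 or more or no liver read, 21 were lower on corn stover, and the class median was -0.18 on the log2 scale. The medians were -0.07, -0.05 and -0.10 in the classes of 300 to under 1000, 100 to under 300 and 30 to under 100.

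Reads of liver-type genes were high in 3 of these same libraries. The summed CPM of 60 genes that are at least 1000 times higher in liver by median stood at 70.8 to 400 ppm (1 part in 1000000) of their liver level in mammary hay libraries and at 204 to 1976 ppm in mammary corn stover libraries, with corn stover libraries 2, 3 and 4 above 1000 ppm and the other ranges overlapping. Without these 3 libraries, again no member passed and the median log2 difference of the members was -0.14, with 58 of 89 lower.

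**Figure D3:**
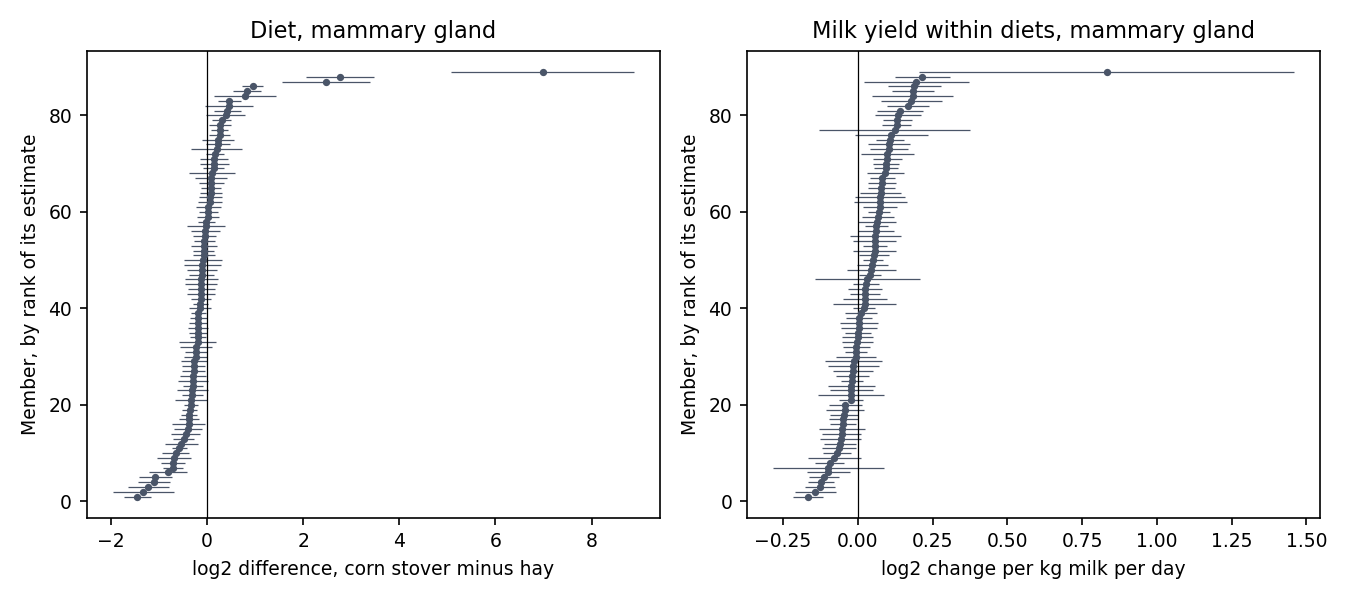
Fitted log2 difference of each of 89 members in mammary gland, ranked by its estimate (y axis), for corn stover minus hay on the left and per kg of milk per day within diets on the right (x axes); bars are standard errors. On the left 58 of 89 points lie below 0 and 1 lies at 6.98, and on the right 56 of 89 lie above 0.

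The second test asked whether the members followed milk yield among cows of the same diet, as a log2 slope per kg of milk per day with diet in the model. No member passed by edgeR or by DESeq2, and 0% of all 12027 genes did. The slope was positive in 56 of 89 members, 62.9% against 51.4% of all genes, with a median of 0.03 against 0.00. With library totals as the only scaling, 73 of 89 were positive, but that scaling moved the median slope of all genes to 0.05. An unadjusted p under 0.05 was reached by 13 members, 14.6% against 9.79% of all genes, with 9 positive, 10.1% against 4.64%, and 4 negative, 4.49% against 5.16%. DESeq2 gave 18 such members, 20.2% against 11.4%. The edgeR count of 13 members, with 1178 of all genes, was 1 without corn stover library 6, from the cow of lowest yield, with 544 of all genes. It was 6 without hay library 4, with 613 of all genes, 8 without hay library 2, with 976, and 22 without hay library 5, with 1954. In the parity 3 cows only, which leaves out the cow of highest yield in each diet, no member passed. The edgeR count was then 6, with 712 of all genes, and 4 of the 6 were positive and 2 negative.

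Among the positive slopes, ENSBTAG00000006355 and ENSBTAG00000004822 each had a fitted value of 0.13 ± 0.048 (SE) per kg at an edgeR adjusted p of 0.488, which does not pass. ENSBTAG00000006355 had a lowest, median and highest value of 23.9, 46.6 and 56.7 normalised CPM on hay and 20.1, 38.8 and 48.4 on corn stover. ENSBTAG00000004822 had 51.4, 64.7 and 86.7 on hay and 28.2, 58.2 and 78.5 on corn stover. In both, the lowest of the 12 values was that of corn stover library 6 and the highest that of hay library 2, which are the cows of lowest and highest yield. The slope in hay cows alone was 0.12 for the first gene and 0.06 for the other, and in corn stover cows alone 0.17 and 0.27.

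Among the negative slopes, ENSBTAG00000009468 had -0.17 ± 0.051 per kg (edgeR adjusted p = 0.488). Within hay cows the slope was -0.20 and within corn stover cows -0.10, while it was 0.10 when diet was left out of the model. ENSBTAG00000010850 had -0.12 ± 0.042 (edgeR adjusted p = 0.488). It lay at a lowest, median and highest value of 33.2, 38.7 and 48.6 normalised CPM on hay and 24.7, 29.5 and 64.3 on corn stover, with the highest value in corn stover library 6.

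**Figure D4:**
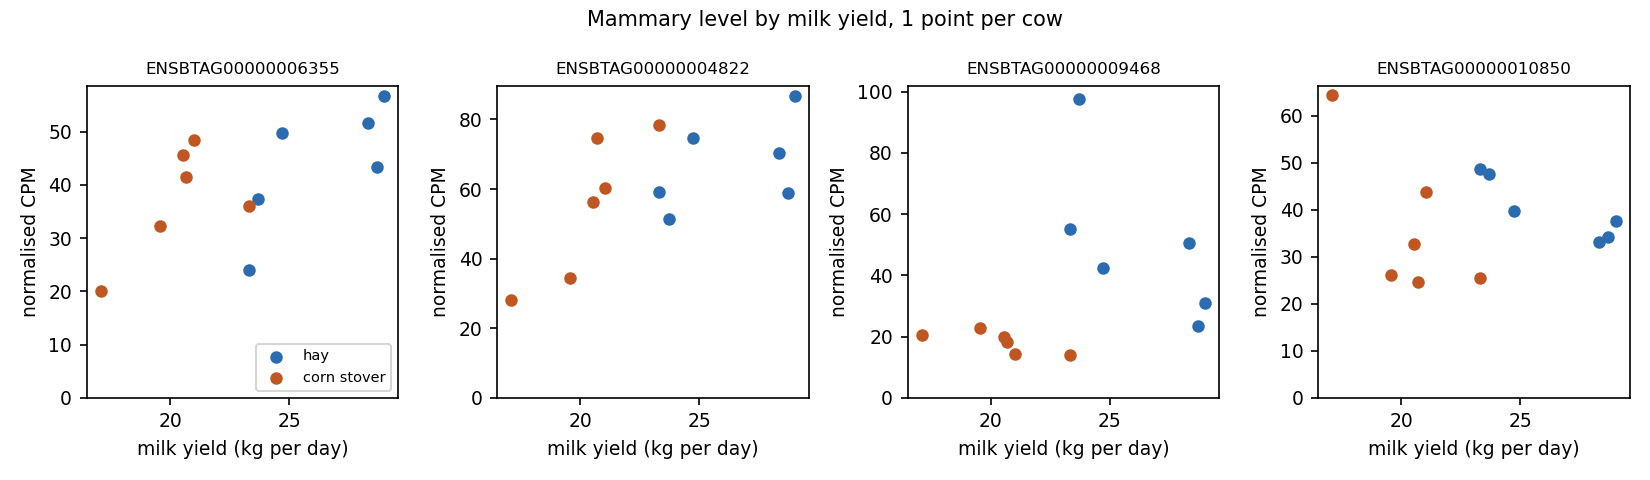
Normalised CPM in mammary gland (y axes) against milk yield in kg per day (x axes) for 4 members, 1 point per cow, blue for hay and orange for corn stover. ENSBTAG00000006355 and ENSBTAG00000004822 are lowest in the cow at 17.1 kg per day, and ENSBTAG00000010850 is highest in that cow.

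DESeq2 made calls for yield only in subsets of the cows. Among corn stover cows alone it called 5 of 88 members, 5.68% against 1.59% of all genes, all with positive slopes. Among hay cows alone it called none. The 5 were ENSBTAG00000006752, ENSBTAG00000009145, ENSBTAG00000010007, ENSBTAG00000013929 and ENSBTAG00000021276, listed because they make up that count, with slopes from 0.25 to 0.48 per kg. Corn stover library 6, at 17.1 kg, was the lowest of its diet in all of these but ENSBTAG00000021276. Library 1, at 23.3 kg and of parity 2, was the highest in ENSBTAG00000009145, ENSBTAG00000010007 and ENSBTAG00000021276. The rest lay at 19.6 to 21.0 kg, so the slopes lean on the end cows and nothing is read from that share. edgeR called none in either subset. Whether the slopes differ between the diets was not tested.

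The last test asked whether the members differed between the diets in liver, where they are low by choice. Only 33 of the 90 had liver reads enough to be tested, so nothing said of these 33 holds for the whole set. No member passed, and 0% of all 12929 genes did. DESeq2 called none of the 33 and 0.0232% of all genes. An unadjusted p under 0.05 was reached by 2 of 33 members, 6.06% against 2.74% of all genes, both lower on corn stover, 6.06% against 1.28%. Fitted differences were negative in 19, 57.6% against 49.4% of all genes, and positive in 14. With library totals as the only scaling 18 were positive, where the median difference of all genes was 0.08 in place of 0.00.

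These 2 were ENSBTAG00000004905 and ENSBTAG00000007485. ENSBTAG00000004905 measured 1.92, 24, 2.87, 9.62, 5.95 and 5.95 normalised CPM in hay livers 1 to 6, with a median of 5.95, and 2.56, 2.62, 4.86, 2.51, 3.24 and 1.07 in corn stover livers 1 to 6, with a median of 2.59. The groups overlapped, and hay liver 2 stood apart. The log2 difference was -1.58 ± 0.52 by edgeR and -0.91 without that library. ENSBTAG00000007485 ran from 0.405 to 2.22 on hay and from 0 to 0.975 on corn stover, with a log2 difference of -1.49 ± 0.61. The smallest p values in the other direction belonged to ENSBTAG00000003300, at 6.11 ± 1.62 on hay and 7.70 ± 1.96 normalised CPM on corn stover (SD, n = 6 each) for a log2 difference of 0.33 ± 0.24, and to ENSBTAG00000016165, at 0.897 ± 0.685 and 1.33 ± 0.525 for 0.55 ± 0.51.

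Some members followed the 7 genes at or above 5000 CPM in where their liver reads lay. In hay livers 1 to 5 those 7 genes reached 143 to 291 ppm of their mean in mammary gland, and in the other 7 livers 0.0484 to 34.0 ppm. Hay livers 1 to 5 are also the liver libraries whose count column carries a tissue letter in its header. Hay liver 6, on the same diet, carries no such letter, and the 7 genes stood there at 1.51 ppm. Whether hay livers 1 to 5 were handled apart is not known and was not tested. The 27 members with a ratio of 1000 or more or no liver read stood at 273 to 374 ppm in hay livers 1 to 5 with a median of 328, and at 141 to 546 ppm in the others, with a median of 240. The groups thus overlapped, through the 546 ppm of corn stover liver 5. With that liver set aside after its value was seen, the other 6 lay at 141 to 253 ppm, below all of hay livers 1 to 5. Of these 27 members, 20 had a higher mean in hay livers 1 to 5, and of all 90 members 58 were higher and 30 lower there. The share over all genes is not given here, so nothing is read from these counts. The classes of lower ratio stood far higher, up to 38378 ppm, and overlapped between the same groups of livers.

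The 7 genes lay close together, each at 69.5 to 98.8 ppm of its mammary mean over the 12 livers. Only 9 members were at or below the highest of these values, and 81 were above it, with a median over all members of 4422 ppm. The 9 had 74 reads in hay livers 1 to 5 and 22 in the other 7 livers, or 112 and 21.2 ppm of their mammary level. ENSBTAG00000048250, with 34 of its 35 liver reads in hay livers 1 to 5, was one of them. The 9 were picked by their low values in liver, and where the liver reads of any member came from was not tested.

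**Figure D5:**
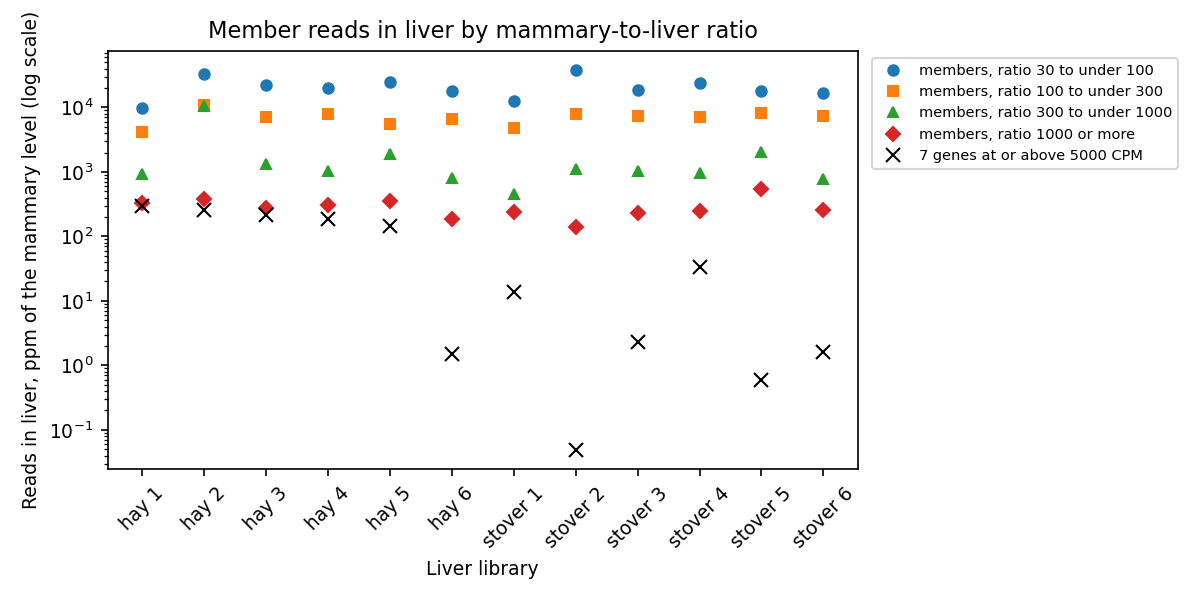
Summed reads in each of the 12 liver libraries (x axis) as ppm of the mean mammary level (y axis, log scale) for 4 classes of members by mammary-to-liver ratio and for the 7 genes at or above 5000 CPM (crosses); diamonds include the 2 members without a liver read. The crosses lie at 143 to 291 ppm in hay livers 1 to 5 and at 34.0 ppm or less elsewhere, and no class of members as a sum shows a step of that size.

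A single liver library, hay liver 2, stood out over all genes as well as in the set. Of all genes with at least 20 reads in some liver, 72 had at least 5 times the CPM of the next liver there. In any other liver at most 15 did. The members are low in liver by choice, unlike all genes, so the shares below are of unlike genes. Of the 44 members with at least 20 reads in some liver, 4 had at least 5 times the CPM of the next liver in hay liver 2, against 0.533% of all genes with that many reads, and none did so in another liver. These 4, listed because they make up that count, were ENSBTAG00000031497 with 263 reads against 0 to 4 in the other livers, ENSBTAG00000002430 with 165 against 0 to 2, ENSBTAG00000037526 with 262 against 0 to 32, and ENSBTAG00000021838 with 76 against 2 to 14. The mammary library of that cow held 11512, 534, 2994 and 543 reads of them. The 7 genes at or above 5000 CPM stood at 259 ppm in that liver, below the 291 ppm of hay liver 1.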

How the data were processed

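The authors deposited raw read counts per gene, 1 file per library with the same 24616 Ensembl identifiers. TopHat2 2.0.9, SAMtools 1.1, HTSeq 0.6.1 and UMD3.1 are named per the submitters' processing notes; for annotation release and strand the entry is "not given in the sources used here", so overlapping and near-identical genes may share reads. Libraries of the same diet and number carry the same cow measurements in the labels and were taken as 1 cow. Members and lists were chosen with earlier results of these data known. No identifier matched the gene table, so the gene lists, markers, sequences and positions were not used here.

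Tests used edgeR 4.0.16 (quasi-likelihood, filterByExpr with minimum count 10 and total 15, TMM within tissue) in R 4.3.3, adjusted over all genes tested. Checks used DESeq2 1.42.0, limma 3.58.1 (voom), other scalings and filters, and each library left out. The methods were tested on simulated data. The genes named are the 2 with the smallest p per direction and comparison and the 2 most abundant; others are said to be chosen after their values were seen. Genes with few reads carry their counting error.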

Additional observations from a re-analysis of the deposited data

Results flagged for a closer look

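In 46 groups of 6 libraries, 8 held a library whose gap to the nearest other was over 0.625 of the group's range (Dixon's limit), where chance alone gives about 1 group in 20. Of the 8, 6 are in 2 genes that were picked because 1 library carried them, so the number of cases is not read against chance. The set's share of mammary reads was 2.63% in corn stover library 1 against 1.60% to 1.94% in the others. It was 2.19% against 1.58% to 1.90% without ENSBTAG00000039035 and ENSBTAG00000046912, a gap of 0.468 of the range, which is within the limit. ENSBTAG00000004905 stood at 24 normalised CPM in hay liver 2 against 1.92 to 9.62. ENSBTAG00000039035 met the limit in 3 groups, at 41.5 normalised CPM in corn stover liver 2 against at most 3.34, at 23.2 in mammary hay library 1 against at most 2.29, and at 3155 in mammary corn stover library 1 against at most 399. ENSBTAG00000046912 met it in 3 groups as well, at 0.477 normalised CPM in corn stover liver 2 against 0, at 0.162 in mammary hay library 3 against at most 0.0388, and at 234 in mammary corn stover library 3 against at most 0.0830. The first 2 of these last values rest on 14 and 4 reads.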

How the results depend on the processing

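edgeR called no member in any comparison under any scaling, filter, covariate, subset or left-out library tried, and neither did limma voom. DESeq2 called 3 for diet in mammary gland, and 2 to 4 with 1 library left out, where it called 26 to 84 of all genes. For yield it called 5 in corn stover cows alone and 0 to 4 with 1 library left out (2 without hay 1, with 112 of all genes, and 4 without hay 5, with 215). The DESeq2 fits of subsets were chosen after seeing the data. The slope of ENSBTAG00000009468 on yield reversed to 0.10 with no diet term. TMM over all 24 libraries gave 151 members, 89 of them shared; other rules gave 75 to 112, and 87 to 93 with 1 mammary library left out. The same number in both diets stands for separate cows, so the numbers do not pair them. Same-numbered libraries correlated at -0.26 to 0.29 in mammary gland (3 of 6 best with their own number) and 0.06 to 0.60 in liver (4 of 6). The replicate block left 0 members called in each comparison, with a smallest adjusted p of 0.0518 for diet in mammary gland, where 12 of all genes were called. For yield the block gave slopes of 0.01 for ENSBTAG00000006355 and ENSBTAG00000004822, and 4 members and 366 of all genes at an unadjusted p under 0.05, with none of the 4 positive. Without hay livers 1 to 5, which leaves 1 hay liver assumed to vary like the corn stover livers, 0 members were called.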
